A study of Homo sapiens with 2 samples.

Results

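The genes described here are the 60 genes called changed in SNU-449 cells after ezetimibe that the KEGG database files under Neuroactive ligand-receptor interaction. They were selected on the authors' own call of change between the 2 libraries, and taken from that pathway's row in the authors' deposited table, after removing the 1 of its 61 genes, the leptin receptor LEPR (listed as down), that the table also files under Cytokine-cytokine receptor interaction. The table holds 2238 distinct changed genes in all. SNU-449 is a human hepatocellular carcinoma cell line, grown in RPMI medium with fetal bovine serum. The 2 libraries of total RNA came from 1 culture without drug, the control, and 1 culture given ezetimibe for 24 h. Ezetimibe lowers cholesterol by blocking the sterol transporter NPC1L1. The sources used here do not state its dose or whether the control had a vehicle. With 1 library per condition no difference has a replicate check and no test was run, so each direction describes these 2 libraries.

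Neuroactive ligands are transmitters, peptide hormones and lipids released by one cell and read by another through a receptor at the membrane or, for steroid and thyroid hormones, in the nucleus. Most of the membrane receptors couple to G proteins, which raise or lower cyclic AMP or release calcium, and a smaller set are ion channels opened by the ligand itself. The liver is a target of many of them. Catecholamines, vasopressin, angiotensin and purines drive glucose output and bile flow, and hepatocytes make angiotensinogen and complement proteins. Such genes are thus not limited to nerve cells. The set was also wider than receptors, as it held 37 genes of G protein-coupled receptors, 7 of ion channel subunits, 2 of nuclear receptors and 13 of ligands. The remaining gene, PARD3, encodes a scaffold protein of cell polarity and is not known as a receptor or a ligand. RefSeq gives PARD3 and the thrombin receptor family gene F2RL2 the same synonym, PAR3. F2RL2 was not listed, and how PARD3 came into the row was not tested.

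After ezetimibe 14 of the 60 were called up and 46 down. The share up was 23.3% (exact Clopper-Pearson 95% interval 13.4 to 36.04, which covers counting of genes only), beside 32.5% of all 2238 genes and 32.8% of the 2178 genes outside the set. The rule took these genes because they were called changed in the same comparison, so the numbers describe the set and test nothing. Per the authors' deposited table, 61 of the 362 background genes of the pathway were changed, 16.9%, against 25.2% of all 8877 background genes. In the up direction these shares were 3.87% of the pathway and 8.20% of all background genes, and in the down direction 12.98% and 17.0%. The authors' deposited table gives the pathway a rich factor, its share of changed genes over that of the background, of 0.668, with p = 1 and q = 1. The table gives a direction for each gene and neither a level, a fold change nor a p, so no size of change can be stated for any gene. Absence from the table can mean no call of change, no expression, or no place in any pathway. The name of the comparison puts ezetimibe first, so up was taken as higher in the treated culture. Nothing in the table allows a check of that order.

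**Figure D1:**
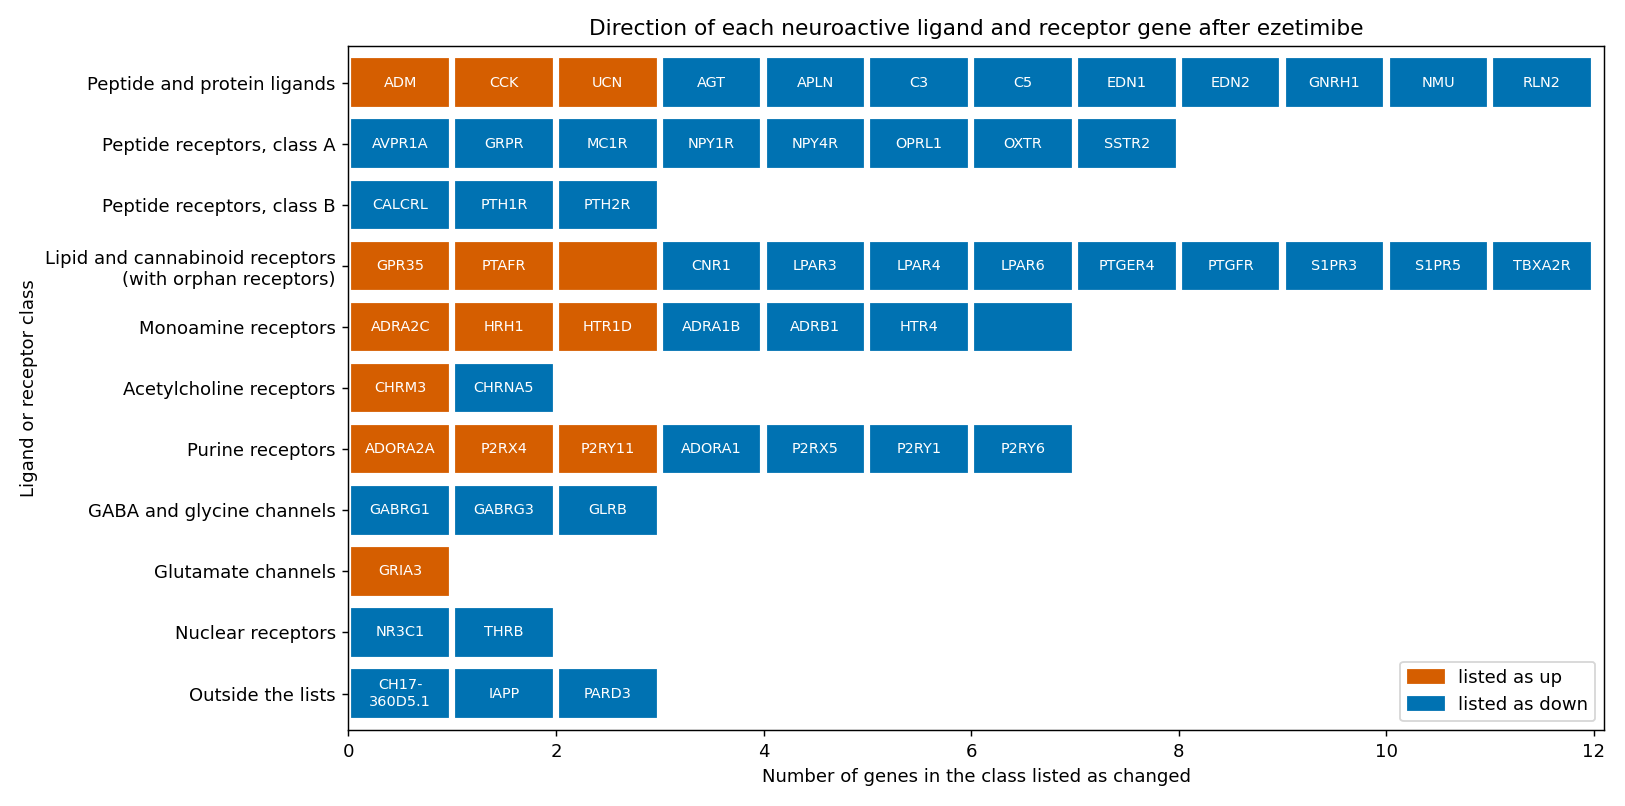
Each tile is 1 of the 60 genes, named where the gene is reported, in rows by class, with the number of genes along the horizontal axis; orange tiles were listed as up and blue tiles as down after ezetimibe. Both rows of peptide receptors, 8 and 3 genes, are blue throughout, while monoamine and purine receptors each hold 3 orange and 4 blue tiles.

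To show what the gene starts look like, the 250 bases before the RefSeq transcription start (GRCh38.p14) are printed for 4 genes in opposite-direction pairs. The first pair is the vasodilator peptide ADM, listed as up (chr11:10304823-10305072, plus strand), and its receptor CALCRL, listed as down (chr2:187448253-187448502, minus strand). The second pair is the catecholamine receptors ADRA2C, listed as up (chr4:3766135-3766384, plus strand), and ADRB1, listed as down (chr10:114043616-114043865, plus strand). Capitals mark a TATAAA or CCAAT motif on either strand.
ADM: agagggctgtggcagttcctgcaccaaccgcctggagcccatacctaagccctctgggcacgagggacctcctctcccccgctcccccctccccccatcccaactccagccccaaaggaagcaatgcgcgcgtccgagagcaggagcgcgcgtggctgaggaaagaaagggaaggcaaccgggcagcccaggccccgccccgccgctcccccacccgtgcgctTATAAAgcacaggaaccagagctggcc
CALCRL: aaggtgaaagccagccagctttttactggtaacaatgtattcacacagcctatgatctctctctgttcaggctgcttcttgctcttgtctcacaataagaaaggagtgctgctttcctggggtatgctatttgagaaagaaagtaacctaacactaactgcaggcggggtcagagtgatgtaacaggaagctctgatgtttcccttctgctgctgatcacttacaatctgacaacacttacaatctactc
ADRA2C: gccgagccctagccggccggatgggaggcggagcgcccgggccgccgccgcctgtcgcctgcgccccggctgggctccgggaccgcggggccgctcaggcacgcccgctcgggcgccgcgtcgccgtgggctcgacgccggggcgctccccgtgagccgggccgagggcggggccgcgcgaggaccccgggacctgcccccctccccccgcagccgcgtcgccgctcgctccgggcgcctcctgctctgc
ADRB1: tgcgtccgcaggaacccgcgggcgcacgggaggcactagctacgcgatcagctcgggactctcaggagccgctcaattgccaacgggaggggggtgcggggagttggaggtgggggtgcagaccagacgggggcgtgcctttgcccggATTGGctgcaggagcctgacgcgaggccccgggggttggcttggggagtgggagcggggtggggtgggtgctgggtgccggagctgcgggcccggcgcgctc
The ADM window is 68.0% G and C with 16 CpG dinucleotides and a TATAAA motif near its end, while the CALCRL window is 44.0% G and C with 1 CpG. In the adrenergic pair both windows are rich in CpG, and the gene listed as up again has the higher values. They are 84.8% G and C with 44 CpG for ADRA2C, and 72.8% with 24 CpG for ADRB1. These 4 windows are examples, and no difference between them was tested. The RefSeq and GENCODE starts differ, so 250 bases of the ADM window, 208 of CALCRL, 37 of ADRA2C and 0 of ADRB1 lie inside the GENCODE span of the gene. RefSeq promoters were matched for 50 of the 60 genes. Those without an entry included ADORA2A, C3, CHRNA5, GNRH1, GRIA3, P2RX5, P2RY6 and PARD3.

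Among 13 ligand genes, 3 were up and 10 down, a share up of 23.1% beside the 32.5% of the whole table, where most genes were also down. The classes are described gene by gene, and no class was tested against the table. The genes listed as up were ADM (ENSG00000148926; chromosome 11, 10304680 to 10307397, GENCODE release 29 on GRCh38, as for all gene positions below), CCK and UCN. ADM encodes adrenomedullin, CCK the gut and brain peptide cholecystokinin, and UCN urocortin, a peptide of the corticotropin-releasing family. Listed as down were the vasoconstrictor endothelins EDN1 (ENSG00000078401; chromosome 6, 12290363 to 12297194) and EDN2, and AGT (ENSG00000135744; chromosome 1, 230702523 to 230714297). AGT encodes angiotensinogen, the liver protein from which angiotensin is cut. The complement proteins C3 and C5, whose fragments C3a and C5a act on their own receptors, were also down. So were the apelin gene APLN, the relaxin gene RLN2, the neuromedin U gene NMU, the gonadotropin-releasing hormone gene GNRH1 and the islet amyloid peptide gene IAPP. The dilator ADM was listed as up and the dilator APLN as down, and the constrictors EDN1, EDN2 and AGT were down. The other ligands were not sorted by their effect on vessels.

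Of the 13 ligand genes, 1 had a usual receptor of its own among the listed genes. Of the pathway's background genes 16.9% were called changed, and a receptor that is not listed may be unchanged or not expressed. The overlap was not tested. ADM signals through CALCRL (ENSG00000064989; chromosome 2, 187343129 to 187448460), and the ligand was up where the receptor was down. For the other 12, no receptor gene searched was listed: neither the endothelin receptors EDNRA and EDNRB, the angiotensin receptors AGTR1 and AGTR2, the apelin receptor APLNR, nor the complement receptors C3AR1 and C5AR1. The receptors of cholecystokinin, urocortin, neuromedin U, relaxin, gonadotropin-releasing hormone and the CALCR receptor for the islet peptide were also not listed. The lists held 72 class A peptide receptors and 18 class B genes, of which 8 and 3 were listed as changed. Over all background genes 25.2% were called changed.

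All 11 of these listed peptide receptors were down, as was a copy of one of them, where 32.5% of the whole table was up. The class A receptors were the oxytocin receptor OXTR (ENSG00000180914; chromosome 3, 8750408 to 8769628), the vasopressin receptor AVPR1A, the somatostatin receptor SSTR2, the bombesin-family receptor GRPR, the nociceptin receptor OPRL1, the melanocortin receptor MC1R and the neuropeptide Y family receptors NPY1R and NPY4R. AVPR1A is the form through which vasopressin acts on hepatocytes. The class B receptors, which bind larger peptide hormones, were CALCRL and the parathyroid hormone receptors PTH1R and PTH2R. The gene listed as CH17-360D5.1, now named NPY4R2, is a copy of NPY4R on chromosome 10. Their longest transcripts, both of 1956 bases, are 99.8% identical over their whole length, so most reads fit both genes and each of their directions is uncertain.

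The list of 34 lipid and cannabinoid receptors also took orphan receptors such as GPR35. It had 12 listed, beside 25.2% of all background genes called changed. Of the 12, 3 were up and 9 down, or 25.0% up beside 32.5% of the whole table. Among those up were GPR35 and the platelet-activating factor receptor PTAFR. The 3 lysophosphatidic acid receptors LPAR3, LPAR4 and LPAR6 were down. The prostanoid receptors were down as well: PTGER4 for prostaglandin E, PTGFR for prostaglandin F and TBXA2R for thromboxane. S1PR3 and S1PR5, receptors for sphingosine 1-phosphate, and the cannabinoid receptor CNR1 (ENSG00000118432; chromosome 6, 88139864 to 88166359) completed the down group.

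Monoamine and purine receptors had 3 up and 4 down each, or 42.9% up beside 32.5% of the whole table. Among the adrenergic receptors, ADRA2C (ENSG00000184160; chromosome 4, 3766348 to 3768526), which lowers cyclic AMP, was up. The beta receptor ADRB1, which raises it, was down, as was the calcium-coupled alpha receptor ADRA1B. The serotonin receptors showed the same order, with HTR1D, which lowers cyclic AMP, up and HTR4, which raises it, down. The histamine receptor HRH1, calcium-coupled, was up. In the adenosine family the order was the opposite: ADORA2A (ENSG00000128271; chromosome 22, 24417879 to 24442360), which raises cyclic AMP, was up, and ADORA1, which lowers it, was down. The calcium-coupled nucleotide receptors P2RY1 and P2RY6 were down and P2RY11 was up. Of the ATP-gated channels, P2RX4 (ENSG00000135124; chromosome 12, 121209857 to 121234106) was up and P2RX5 down.

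The remaining receptors were few. Of the acetylcholine receptors, the muscarinic CHRM3 was up and the nicotinic channel subunit CHRNA5 down. The AMPA-type glutamate channel subunit GRIA3 was the only glutamate receptor listed, of 26 in the list, and was up. The inhibitory channel subunits GABRG1, GABRG3 and GLRB were all down. By type, 9 of 37 G protein-coupled receptors and 2 of 7 ion channel subunits were up. Both nuclear receptors were down: NR3C1 (ENSG00000113580; chromosome 5, 143277931 to 143435512), the glucocorticoid receptor, and THRB, the thyroid hormone receptor beta. None of 13 genes of protease-activated and complement receptors and their activating proteases was listed. These counts stand beside 25.2% of all background genes called changed.

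Genes that act behind the receptors are given beside the 25.2% of all background genes that were called changed and the 32.5% of changed genes that were up. Of 30 G protein subunit genes, 4 were listed, all as down: GNAI1, which inhibits adenylyl cyclase, and the gamma subunits GNG10, GNG11 and GNG12. Of 19 second messenger genes, 8 were listed, 1 up and 7 down. The adenylyl cyclase ADCY8 was up, and the cyclases ADCY1, ADCY6 and ADCY9, the phospholipases PLCB3 and PLCB4, the calcium release channel ITPR2 and the protein kinase PRKACB were down. The arrestin ARRB1, which silences active receptors, was the 1 of 9 desensitisation genes listed, as down.

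Of 34 genes of transmitter synthesis and breakdown, 12 were listed, 3 up and 9 down. Over all background genes 25.2% were called changed, and 32.5% of the changed genes were up. The genes up were SPHK1, the kinase that makes sphingosine 1-phosphate, ACHE, which splits acetylcholine, and FAAH, which degrades the cannabinoid anandamide. SPHK1 was up where the receptors S1PR3 and S1PR5 were down, and FAAH was up where CNR1 was down. ACHE was up, as was its transmitter's receptor CHRM3, while CHRNA5 was down. These genes were set side by side with their directions known, and no pairing was tested. Among the genes down, those under the most pathways included the amine oxidase MAOA, the glutaminase GLS2 and the GABA transaminase ABAT. NT5E, the ectoenzyme that makes adenosine, was down too; it was named after its direction was seen. Of 24 transmitter transporters, the glutamate carrier SLC1A1 and the glutamine carrier SLC38A2 were listed, both as down.

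The members lay under a median of 3.0 pathways each, and 13 of the 60 were under this pathway alone. Of those 13, 4 were up, among them GPR35, P2RY11 and UCN. The widest annotation among genes listed as up was that of GRIA3 (10 pathways), CHRM3 (9), ADORA2A (7) and HTR1D (4), followed by CCK, HRH1 and PTAFR with 3 each. Among genes listed as down it was that of AGT (14), C3 (13), EDN1 (12), ADRB1 (10) and PARD3 (9). Such numbers come from the annotation and say nothing of how much a gene changed.

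Calcium signaling shared the most members. It held 15 of them, 25.0% of the set and 27.3% of that pathway's changed genes, with 5 up (ADORA2A, CHRM3, HRH1, P2RX4 and PTAFR) and 10 down. Its other 40 changed genes were 10 up and 30 down. The cAMP signaling pathway held 12 members, 3 up and 9 down, and 54 other genes, 10 up and 44 down. Vascular smooth muscle contraction held 8, with ADM and ADORA2A up and ADRA1B, AGT, AVPR1A, CALCRL, EDN1 and EDN2 down. Renin secretion, the release of the enzyme that acts on angiotensinogen, held 7 members, all down, including ADORA1, ADRB1, AGT, EDN1, EDN2 and PTGER4. The 17 other changed genes of Renin secretion were 1 up and 16 down, so members and other genes leaned the same way there. Phospholipase D signaling differed in its counts, with 6 members all down while 18 of its 50 other genes, 36%, were up. Whether members and other genes differ was not tested, and pathways share genes.

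**Figure D2:**
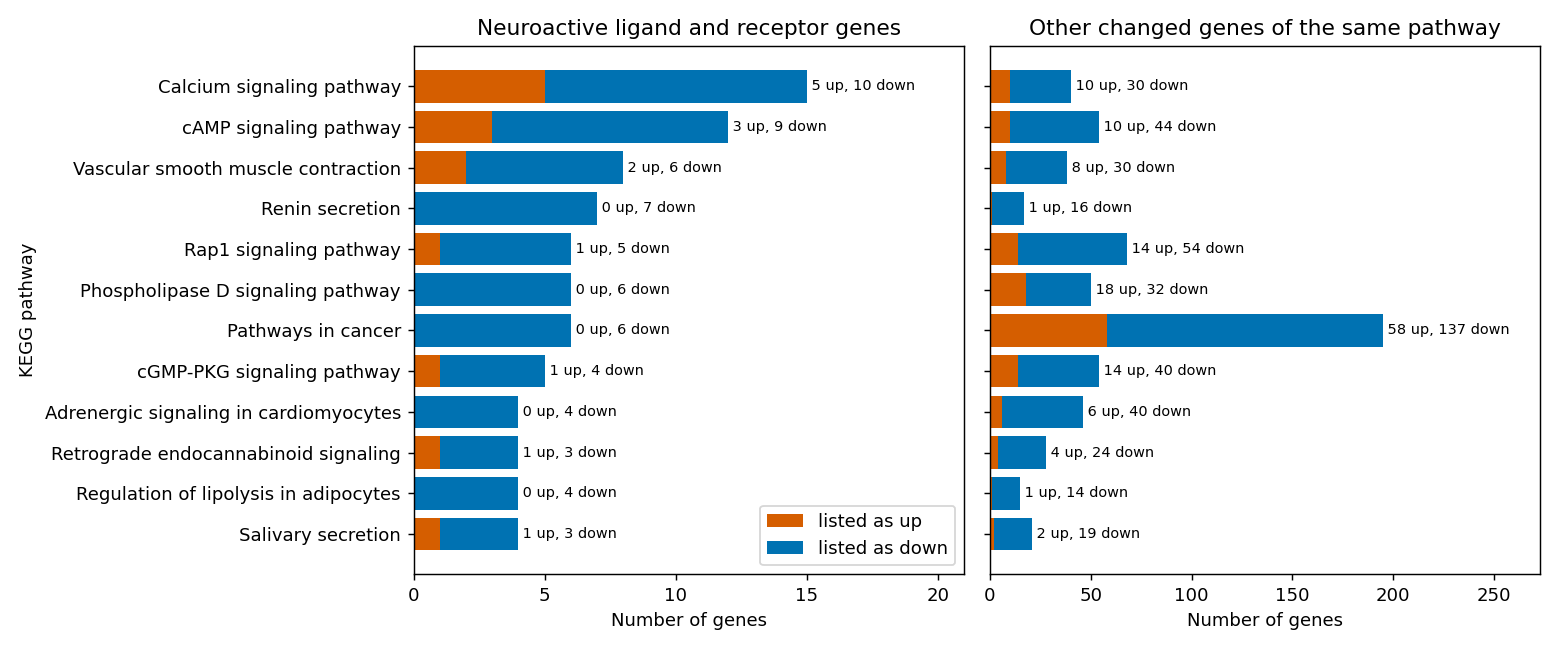
Bars give the number of genes listed as up (orange) and down (blue) under the 12 KEGG pathways that share 4 or more genes with the set, for the set on the left and for the pathway's other changed genes on the right, on separate scales. Genes listed as down outnumber those listed as up in every bar, as in Calcium signaling with 5 up and 10 down in the set and 10 up and 30 down among the other genes.

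Members listed as up had transcripts of higher median GC content than members listed as down, the same order as over the whole table. The shares up by GC class, given below, did not follow those of the table in the highest class. In the longest GENCODE transcript, the 14 genes listed as up had GC contents from 43.1% (CHRM3) to 69.5% (ADRA2C) with a median of 55.5%. The 46 genes listed as down ranged from 33.0% (GABRG1) to 65.1% (ADRA1B) with a median of 47.3%, so the groups overlapped widely. The medians over all genes of the table were 55.2% up and 43.6% down. Median transcript length was 3328 bases for members up and 3166 for members down, against 2860 and 4401 over all genes. The order of the medians in the set was thus the reverse of that over the whole table, and they lay closer together. The part of base composition in the directions was not tested.

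**Figure D3:**
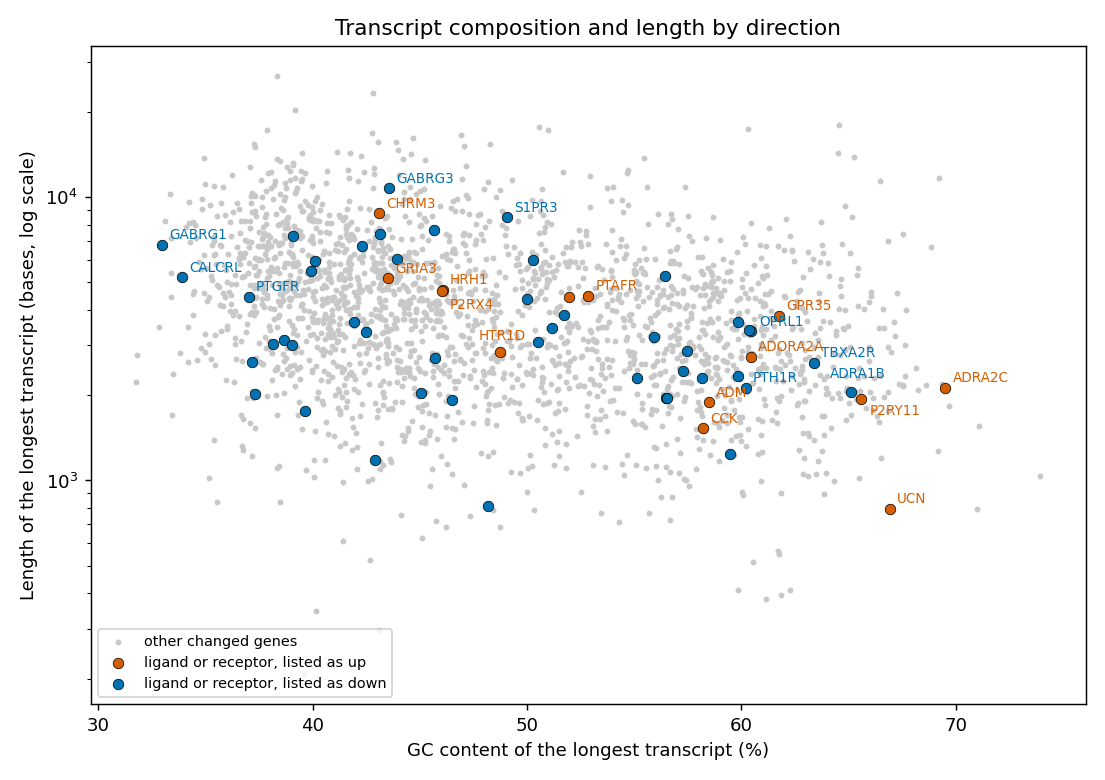
Each point is a gene, placed by the GC content (%) and the length (bases, log scale) of its longest transcript; orange members were listed as up, blue members as down, and grey points are the other changed genes. No orange point lies left of CHRM3 at 43.1%, while blue points span 33.0% to 65.1%.

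When all changed genes were split evenly into 3 classes by GC content, none of the 16 members in the lowest class was listed as up, beside 6.84% of the 746 genes of that class. CHRM3, up, had 43.11% and lay just above the limit of 43.08%. In the middle class, 7 of 21 members were up, 33.3%, beside 33.0% of all. Above 53.1%, 7 of 23 members were up, 30.4% (exact 95% interval 13.2 to 52.9), beside 57.8% of the 746 genes of the class (54.1 to 61.3). The 16 GC-rich members listed as down were ADORA1, ADRA1B, ADRB1, AGT, APLN, C3, CH17-360D5.1, EDN2, MC1R, NPY4R, OPRL1, P2RX5, P2RY6, PTH1R, S1PR5 and TBXA2R. Some close relatives went apart at like composition: ADORA2A, up, had 60.5% and ADORA1, down, 60.3%. P2RX4, up, had 46.0% where P2RX5, down, had 58.2%, the reverse of the order over the table. As means over all transcripts these were 54.9% and 57.3%. HTR1D, up, had 48.7% and HTR4, down, 50.5%. Other relatives followed the table's order. ADRA2C, up, had 69.5% and ADRB1, down, 57.4%. P2RY11, up, had 65.6%, where P2RY1 and P2RY6, down, had 42.3% and 57.3%. The relatives were picked with their directions known, and no pairing was tested.

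**Figure D4:**
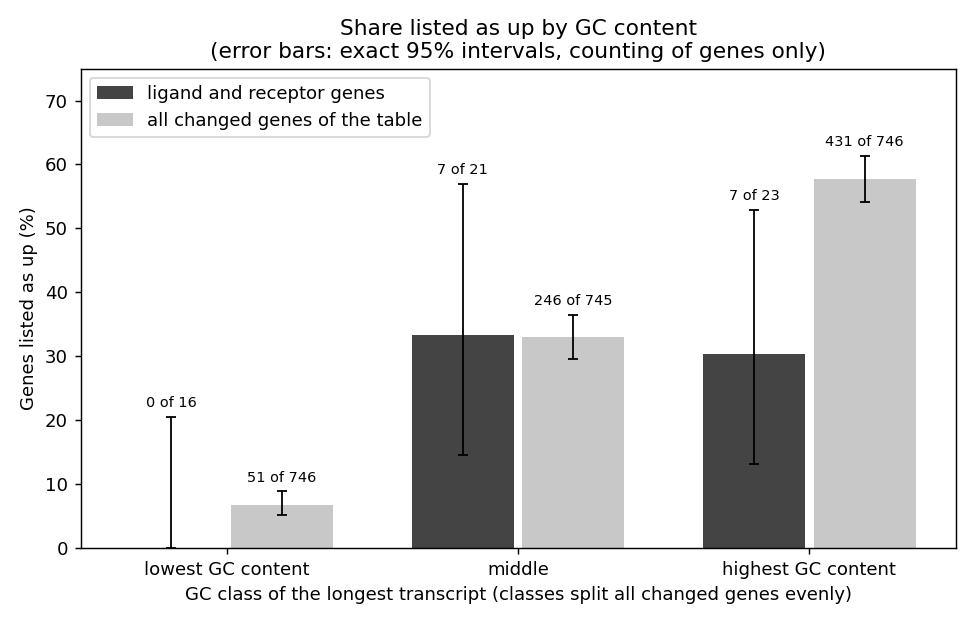
Bars give the share of genes listed as up (%) in 3 even classes of transcript GC content, for the 60 ligand and receptor genes (dark) and all changed genes (grey), with exact 95% intervals that cover counting of genes only. In the class of highest GC content the dark bar stands at 30.4% (7 of 23) and the grey bar at 57.8% (431 of 746).

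Some directions rest on reads that other genes could share. In GENCODE 29, exons of 16 members overlap exons of another gene, for 12 of them on the opposite strand, and the sources used here do not say whether the authors' counting used strand. Of the 14 members listed as up, 6 overlap another gene: ADORA2A, CCK, CHRM3, GPR35, P2RY11 and UCN. Of the 46 listed as down, 10 do. Overlaps were not counted for the other genes of the table. Some overlaps are small, with 2.2% of the exon bases of CHRM3 shared with CHRM3-AS2 and 5.0% of UCN with TRIM54. P2RY11 shares 50.02% of its exon bases with the readthrough gene PPAN-P2RY11, and ADORA2A 56.8% with SPECC1L-ADORA2A. P2RY11 also overlaps EIF3G on the opposite strand, by 113 bases, and EIF3G was listed as up. P2RX5, down, shares 41.6% with P2RX5-TAX1BP3, and CCK 33.2% with an antisense gene. Leaving out all members with such an overlap or a near-identical copy left 42, of which 8 were up (19.0%).

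Markers of cell types gave little to set beside these genes, as the table holds no levels. Of 15 hepatocyte markers 4 were listed (CPS1, FGA, FGB and FGG), all as down, and of 7 hepatoma and epithelial markers AFP and CDH1, both as down. Of 13 neuron and neuroendocrine markers, 1 was listed, the enolase ENO2, as up. Of 8 fibroblast and stellate markers, 4 were listed (ACTA2, COL1A1, COL1A2 and LRAT), all as down. None of 6 endothelial markers was listed, and of 8 immune markers CD68 was up and CD14 down. Over all background genes 25.2% were called changed, and 32.5% of the changed genes were up. A marker that is not listed may still be expressed, so the line's identity cannot be checked from these data.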

How the data were processed

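Total RNA of 1 control culture and 1 ezetimibe culture was sequenced. HISAT2 2.0.4 and StringTie 1.3.0 are named per the submitters' processing notes. The sources used here do not give the genome build, annotation, strand setting, depth or threshold of the calls. Per the file headers, the authors' deposited table gives for 327 KEGG pathways the changed genes by direction, the gene numbers, an enrichment ratio (rich factor), and a q-value beside each p-value. Its name gives edgeR as the authors' tool; no count was analysed here.

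Members, lists and the ligand-receptor pairs were chosen with earlier results of these data known. Every member is named, apart from some genes that are not reported here. From other lists, all listed genes are named where 8 or fewer are listed, otherwise the 4 under the most pathways in each direction. Positions, transcript GC content and length came from GENCODE release 29 by gene ID (2237 of 2238 genes matched, and all 60 members). Near-identical copies were searched with BLAST 2.17.0 (at least 95% identity over at least 50% of the longest transcript). The planned protein comparison was not run. Exact intervals are at the 95% level. The parser was tested on simulated data. Tables were handled with pandas 2.3.3 in Python 3.11.15, intervals with SciPy 1.17.1 and figures with Matplotlib 3.10.9.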

Additional observations from a re-analysis of the deposited data

How the results depend on the processing

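Under the 8 alternatives run, the share of members listed as up ranged from 19.0% without overlapping or near-identical genes to 30.8% for the 13 genes under this pathway alone. All 8 lay inside the interval of 13.4 to 36.04%, which also holds the 32.5% of the whole table. Each alternative reuses genes of the same set, so staying inside is no independent check. Some hold only a small part of it, such as the 12 ligands counted without IAPP and the 13 genes under this pathway alone. No member lies under more than 20 pathways, so that alternative left the set as it was. Leaving out PARD3, or counting NPY4R and its copy once, both chosen after seeing the data, gave 23.7% each. The share up over all genes was 32.4% without genes under more than 20 pathways and 32.4% without disease pathways. Median GC content was 63.6% for members up and 60.4% for members down in the promoter windows (11 and 39 genes). As a mean over all transcripts, added after seeing the data, it was 55.3% and 49.3%. The order of the medians held in both, and the gap was smaller. No paired analysis was possible because each condition has 1 library. Depth is unknown, so what it limits cannot be stated.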

Other observations

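Many of these receptor genes have few exons. Of the 18 members whose longest transcript has 1 or 2 exons, 6 were listed as up (33.3%), and of the 42 with 3 or more exons, 8 (19.0%). Over the whole table these shares were 37.4% of 203 genes and 32.1% of 2034 genes. The difference between the classes was not tested.

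In the 250 bases before the start, the cAMP response element TGACGTCA, searched on both strands like the motifs that follow, was in 0 of the 50 members with a promoter entry and in 1.77% of all 27305 promoters. The AP-1 motif TGANTCA was in 4 members (HRH1 and PTAFR, up, and IAPP and PTH1R, down), 8.0% beside 6.60% of all promoters. The GC box GGGCGG was in 28 members, 56.0% beside 42.3%, among them 6 of 11 listed as up and 22 of 39 listed as down. The CCAAT motif was in 13 members, 26.0% beside 33.0%, of which 2 were up (P2RY11 and PTAFR). The TATAAA motif was in 3 members, ADM, AGT and LPAR4, 6.0% beside 11.1%. The hypoxia element core ACGTG was in 7 members, 14% beside 18.7%, of which 1, P2RY11, was up. The RefSeq start is not always that of GENCODE: for 33 of the 50 windows, bases just past the RefSeq start were found in a GENCODE transcript of the gene. The 27305 promoters are not limited to the 2238 changed genes, so these shares have another baseline than the shares up given above. A match describes letters in this window and not a site in use.

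Ligand genes of the list that the table files only under other pathways were BDNF, a neurotrophin, and DBI, the acyl-CoA and benzodiazepine-site binding protein, both listed as down.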
